A study of Mus musculus with 12 samples.

Results

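The Kupffer cell and C1q genes are 10 macrophage genes in 3 roles. C1qa, C1qb and C1qc encode the chains of C1q. Clec4f, Vsig4, Timd4, Cd5l and Folr2 are genes used to recognise resident macrophages, Clec4f above all in the liver. Cd68 and Adgre1, which encodes an adhesion receptor, mark macrophages in general. Their members were taken as every probe set annotated to these symbols alone, which gave 10 probe sets for 10 of the 19938 genes on the arrays of macrophages and liver, and 11 probe sets for 9 of the 12394 genes on the arrays of aorta. Timd4 had no such probe set on the aorta arrays and C1qb had 3.

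All groups came from Apoe-/- mice backcrossed to C57BL/6J; the knockout groups were Prkch-/-Apoe-/-, and the controls lacked Apoe alone. Peritoneal macrophages elicited with thioglycolate and left unstimulated came from females on regular diet aged 18, 17 and 27 weeks, as replicates 1, 2 and 3 of each genotype. Livers (2 control and 2 knockout arrays) were taken after re-feeding from males aged 20 weeks that had received high-fat diet for 12 weeks, and aortas (1 array of 4 pooled mice per genotype) from fed males of the same age and diet. Liver and aorta were perfused with saline before removal, and the labels name neither a Cre driver nor a cell type for the loss of Prkch. The labels call the arrays biological replicates without naming single animals, so a p-value here reflects only how far these arrays spread.

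Kupffer cells are the macrophages that live in the sinusoids of the liver, where they clear particles, complement-tagged debris and dying cells from portal blood. C1q is the recognition part of the classical complement pathway: it binds immune complexes and dying cells and carries the proteases C1r and C1s, which start the cascade. Macrophages and related myeloid cells are the main source of C1q, whereas hepatocytes secrete most of the other complement components.

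C1qb, C1qc and C1qa are neighbours, in this order, on chromosome 4 of the RefSeq annotation of GRCm38.p6, and Clec4f lies beside Cd207, another gene of macrophages and Langerhans cells, on chromosome 6. RefSeq start-site windows of 300 bases, 250 before and 50 after the start, were matched by symbol for 8 of the 10 genes, with 9 windows in all and 2 for Folr2; C1qa and Adgre1 had none. They were searched on both strands for AGGAAGT, a PU.1-like motif, TGCTGAC, a MAF-like motif, and TGANTCA, an AP-1-like motif that reads the same on both strands. The PU.1-like motif was present for 3 genes (C1qb, C1qc and, in 1 of its windows, Folr2 at 2 places), against 10.7% of the 27025 genes with a window. The MAF-like motif was present for Timd4 alone, against 5.28% of genes, and the AP-1-like motif for Cd68 and, in its other window, Folr2, against 8.97%. The windows of the C1q pair are shown because these neighbours had similar values across the livers, and that of Cd68 because it had the largest difference in liver. Capitals mark the motifs, read 5′ to 3′ along the gene's strand: the reverse complement of the PU.1-like motif in C1qb (chr4:136886151-136886450, minus strand) starting at -53 from the start site and in C1qc (chr4:136892865-136893164, minus strand) at -195, and the AP-1-like motif in Cd68 (chr11:69666121-69666420, minus strand) at -149 and -24. A match describes the letters and is not a measured site.
C1qb: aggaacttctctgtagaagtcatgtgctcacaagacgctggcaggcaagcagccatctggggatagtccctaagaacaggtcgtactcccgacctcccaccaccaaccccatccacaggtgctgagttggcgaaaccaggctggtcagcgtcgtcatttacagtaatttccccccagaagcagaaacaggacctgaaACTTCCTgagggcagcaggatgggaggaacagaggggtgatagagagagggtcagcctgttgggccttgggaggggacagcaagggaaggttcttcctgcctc
C1qc: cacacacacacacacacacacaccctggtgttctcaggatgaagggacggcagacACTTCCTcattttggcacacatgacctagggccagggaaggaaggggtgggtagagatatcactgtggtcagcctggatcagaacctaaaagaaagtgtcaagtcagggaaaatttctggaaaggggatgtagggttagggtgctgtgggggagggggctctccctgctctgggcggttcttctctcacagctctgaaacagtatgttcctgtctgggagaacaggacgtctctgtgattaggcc
Cd68: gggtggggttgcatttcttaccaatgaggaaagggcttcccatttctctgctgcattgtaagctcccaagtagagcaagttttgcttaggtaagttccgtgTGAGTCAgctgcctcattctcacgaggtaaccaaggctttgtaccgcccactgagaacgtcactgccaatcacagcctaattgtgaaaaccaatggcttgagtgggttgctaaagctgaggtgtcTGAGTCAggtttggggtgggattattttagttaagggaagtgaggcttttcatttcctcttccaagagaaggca

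Before the results, some arrays stood apart. The deposited values are log2 probe set summaries, with array medians from 6.57 to 6.77 in macrophages and from 5.88 to 5.93 in liver. The labels name no batch, but the macrophage arrays fell into sets by the number of exactly equal values they share, called batches here. Batch 1 held control replicates 1 and 2 with knockout replicate 1, and batch 2 held control replicate 3 with knockout replicates 2 and 3. The arrays from mice aged 27 weeks all lay in batch 2. Within batch 2, 16075 to 18000 probe sets per pair were equal, against 0 to 3 for pairs across the batches; 2 of the 10 genes had equal values there, and Clec4f on knockout replicates 2 and 3 was 1 such pair. Macrophage knockout replicate 2 differed from the other arrays: 5 B cell markers had a median of 1.59 above their control means, 9 genes of large peritoneal macrophages 0.94 above, and Itgax, the gene of CD11c, lay at 8.28 against 10.34 to 10.87 on the other 5 arrays. The brighter probe set of Prkch, the targeted gene, lay between 9.31 and 9.94 in control macrophages and between 8.79 and 9.36 in knockout macrophages, which overlapped across the batches. Within each batch its control and knockout values did not overlap. They lay at 9.94 and 9.86 against 9.36 in batch 1, and at 9.31 against 8.79 and 8.87 in batch 2. In the livers the brighter probe set lay at 6.57 and 6.87 against 5.93 and 5.65, which did not overlap. The dimmer probe set lay at 4.08 and 4.04 in control livers and at 3.94 and 4.21 in knockout livers. These overlapped, below the limit of 4.87 for dim genes in liver. In macrophages the dimmer probe set lay at 7.06 and 7.14 in controls against 6.85 in the knockout of batch 1. In batch 2 it lay at 6.85 against 6.62 and 6.62.

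**Figure D1:**
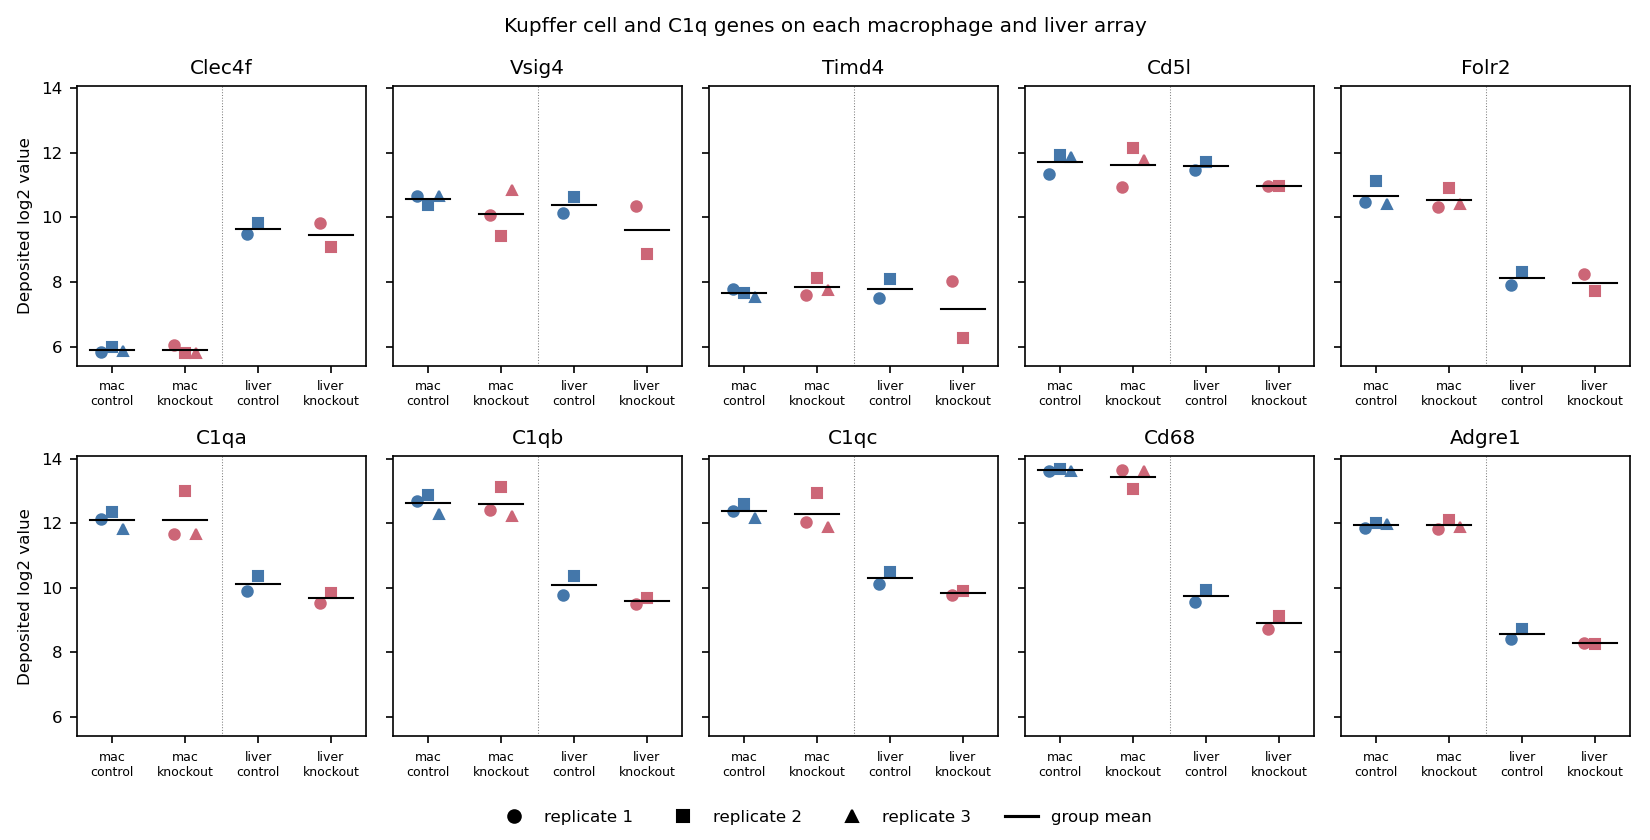
Deposited log2 value of each gene (vertical axis) on the 6 macrophage (mac) and 4 liver arrays; symbols give the replicate number, blue is control, red is knockout and bars are group means. Clec4f separates the tissues most, with every macrophage array at or below 6.05 and every liver array at or above 9.09, while Cd68, Adgre1, Folr2 and the C1q chains are higher in macrophages.

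The control groups show how the genes divide between elicited macrophages and liver. Array medians were first removed, because the medians of control macrophages lay 0.78 above those of control liver, and differences below are control macrophages (3 arrays) minus control liver (2 arrays) on that scale. By limma with Benjamini-Hochberg adjustment over 15560 genes all 10 genes passed an adjusted p under 0.05. They split into 6 that were higher in macrophages, where 36% of all genes tested were called higher, and 4 that were lower, where 31.1% were called lower. Tissue, sex, diet, age and processing differ together between these groups and cannot be told apart.

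Clec4f, a lectin receptor of Kupffer cells, had the largest difference. Its log2 values were 5.82, 5.98 and 5.87 in control macrophages and 9.48 and 9.83 in control livers, a difference of -4.54 (SE 0.13), or 23.3-fold (limma, adjusted p = 2.35e-09). In macrophages it lay just above 5.74, the value below which genes were left out as dim. Timd4, a receptor for phosphatidylserine on dying cells, was lower in macrophages by a difference of -0.91 (SE 0.16; limma, adjusted p = 0.000721), Vsig4, a receptor for complement fragments of C3, by -0.59 (SE 0.16; adjusted p = 0.0107) and Cd5l, a secreted protein of macrophages, by -0.65 (SE 0.19; adjusted p = 0.0125).

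These last 3 depended on the scale. With the deposited values as they are, Vsig4 was 0.19 higher in macrophages (limma, adjusted p = 0.281), Cd5l was 0.13 higher (adjusted p = 0.491) and the difference of Timd4 was -0.13 (adjusted p = 0.481). Leaving out liver control replicate 2 also took Vsig4 to -0.35 (limma, adjusted p = 0.122) and Cd5l to -0.53 (adjusted p = 0.108). Clec4f kept its direction and its call under all 9 alternatives.

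The remaining genes were higher in elicited macrophages than in liver. Cd68, a lysosomal membrane protein, lay between 13.62 and 13.68 in control macrophages and at 9.58 and 9.94 in control livers, a difference of 3.10 (SE 0.13; 8.58-fold; limma, adjusted p = 2.49e-08). Adgre1 differed by 2.60 (SE 0.13; 6.07-fold; adjusted p = 9.11e-08 by limma). Folr2, a folate receptor of resident macrophages, differed by 1.78 (SE 0.20; 3.43-fold; adjusted p = 3.68e-05 by limma). The C1q chains were likewise higher: C1qa by 1.19 (SE 0.16), C1qb by 1.76 (SE 0.19) and C1qc by 1.30 (SE 0.14), with adjusted p between 2.35e-05 and 0.000131 by limma. Of the resident macrophage genes, then, 4 of 5 were lower and Folr2 was higher in the elicited cells, and of those 4 Clec4f alone kept its call under every scaling run.

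The other classical and lectin pathway components went the other way from C1q. All 11 measured components that act with C1q or through mannose-binding lectin were called lower in macrophages than in liver, with a median difference of -5.14 against 0.02 over all genes tested. C4bp, an inhibitor of the pathway, differed by -7.89 (SE 0.11), the lectin pathway protease Masp2 by -6.09 (SE 0.10) and mannose-binding lectin gene Mbl2 by -5.73 (SE 0.13; limma, adjusted p from 3.98e-11 to 4.65e-10). Complement and C1q receptors were called higher in macrophages for 7 of 10 genes and lower for 1, with Itgam, the alpha chain of complement receptor CR3, 5.83 higher (SE 0.12; limma, adjusted p = 2.35e-10). Among 17 other pan-macrophage genes 16 were called higher, and among 16 other Kupffer cell genes with a value 9 were called lower and 3 higher. Clec1b, the podoplanin receptor of Kupffer cells, differed by -3.42 (SE 0.11; limma, adjusted p = 5.21e-09). All 7 hepatocyte markers were called lower in macrophages, Ttr by a difference of -9.08.

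In liver, the question was whether loss of Prkch changed these genes. All 10 had a lower mean in the knockout livers than in the controls, but none passed an adjusted p under 0.05 by limma over 15942 genes, where 0.00627% of all genes (1 gene) were called. The median difference of the 10 genes was -0.48 on the log2 scale, against -0.02 for all genes tested, of which 57.1% were below 0. Liver control replicate 2 lay above control replicate 1 for all 10 genes, and the median was -0.26 without replicate 2 and -0.71 without replicate 1. Of the 10 genes 5 were lower at an unadjusted p under 0.05, against 2.75% of all genes. In 6 (C1qa, C1qb, C1qc, Cd5l, Cd68 and Adgre1) both knockout livers lay below both controls, against 18% of all genes, and in none above, against 11.8%. These shares describe the 10 genes and are no test of them, because the genes were chosen with earlier results of these data known. In whole liver, fewer macrophages and less of each RNA per macrophage cannot be told apart.

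The chains of C1q had similar, lower means in the knockout livers, none of which passed the test. C1qa lay at 9.90 and 10.36 in the control livers and at 9.52 and 9.83 in the knockout livers, a difference of -0.46 (SE 0.19; limma, adjusted p = 1.00, unadjusted 0.0400). C1qb lay at 9.79 and 10.38 against 9.50 and 9.70, a difference of -0.48 (SE 0.20; limma, adjusted p = 1.00, unadjusted 0.0434). For C1qc the values were 10.13 and 10.50 against 9.78 and 9.90, and the difference was -0.47 (SE 0.16; limma, adjusted p = 1.00, unadjusted 0.0184). The knockout means were 72.7%, 71.6% and 72.2% of the control means on the linear scale, and the groups did not overlap for any chain. Measured from their own control means, the chains stayed within 0.09 to 0.11 of each other on each liver array. Without liver control replicate 2, the higher of the controls for all chains, the differences were -0.23, -0.18 and -0.28.

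Cd68 had the largest difference of the 10 genes. Its values were 9.58 and 9.94 in the control livers and 8.71 and 9.12 in the knockout livers, so that the knockout mean was 55.7% of the control mean. The difference was -0.84 (SE 0.18; limma, adjusted p = 0.712, unadjusted 0.00180), which ranked 40 by p among the 15942 genes tested. Adgre1 lay at 8.41 and 8.72 against 8.29 and 8.26, a difference of -0.29 (SE 0.15; limma, adjusted p = 1.00, unadjusted 0.0911). The groups of Cd68 and Adgre1 did not overlap, though the gap of Adgre1 was narrow. Without liver control replicate 2 the differences were -0.66 for Cd68 and -0.13 for Adgre1, and without control replicate 1 that of Adgre1 was -0.44.

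Cd5l, which encodes the secreted protein AIM, lay at 11.47 and 11.71 in the control livers and at 10.96 and 10.98 in the knockout livers. Its difference was -0.62 (SE 0.14; limma, adjusted p = 0.753, unadjusted 0.00222), with a knockout mean at 65.2% of the control mean and no overlap. It ranked 47 by p.

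The other 4 resident macrophage genes rested on 1 array, knockout replicate 2. Vsig4 lay at 10.14 and 10.62 in the controls, at 10.36 in knockout replicate 1 and at 8.87 in knockout replicate 2, which gave a difference of -0.76 (SE 0.41; limma, adjusted p = 1.00). Timd4 lay at 7.50 and 8.09 in the controls, then at 8.04 and 6.25 in knockout replicates 1 and 2, a difference of -0.64 (SE 0.49; limma, adjusted p = 1.00). Clec4f lay at 9.48 and 9.83 in the controls, then at 9.83 and 9.09, a difference of -0.19 (SE 0.24; limma, adjusted p = 1.00). In each of these genes knockout replicate 1 sat within the range of the controls or level with the higher of them, and knockout replicate 2 sat below both. Folr2 followed the same order with control values of 7.92 and 8.31 and knockout values of 8.24 and 7.72, which differed by -0.13 (SE 0.21; limma, adjusted p = 1.00). Without knockout replicate 2 the differences were -0.0165 for Vsig4, 0.25 for Timd4, 0.18 for Clec4f and 0.13 for Folr2; without knockout replicate 1 they were -1.51, -1.54, -0.56 and -0.39.

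The knockout livers therefore differed from each other by gene. On knockout replicate 1 the median deviation from the control mean was -0.58 for the C1q chains and 0.13 for the 5 resident macrophage genes. On knockout replicate 2 it was -0.38 for the C1q chains and -0.61 for the resident macrophage genes. With 2 arrays per genotype no test between these livers can be made.

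**Figure D2:**
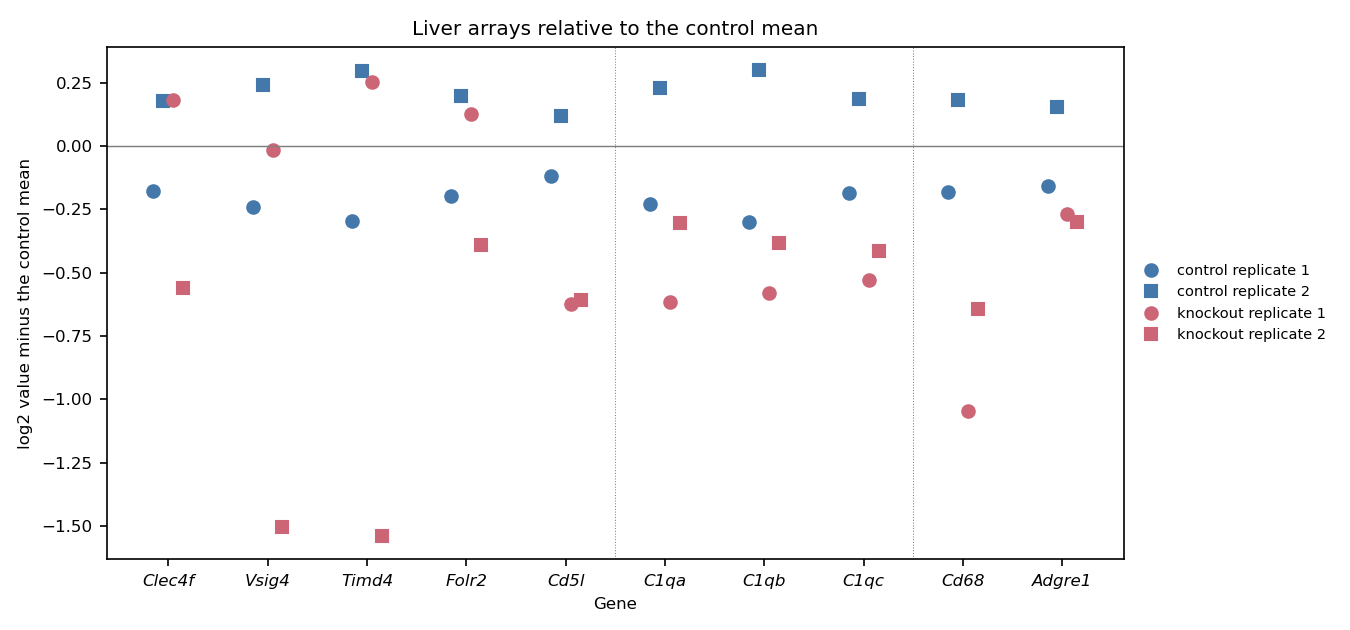
Log2 value of each gene on each liver array minus the mean of the control livers (vertical axis); circles are replicate 1, squares replicate 2, blue control and red knockout, with dotted lines between resident macrophage, C1q and pan-macrophage genes. Both knockout livers lie below both controls for 6 genes, whereas for Clec4f, Vsig4, Timd4 and Folr2 only knockout replicate 2 does, down to -1.54 for Timd4.

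Other genes of the pathway were read from lists of complement and cell type genes, in which no gene passed an adjusted p under 0.05 by limma in the livers. Complement and C1q receptors had lower means in the knockout livers for 8 of 10 genes, with a median difference of -0.35, which was -0.23 without control replicate 2 and -0.14 without knockout replicate 1. Itgb2, the beta chain of CR3 and CR4, lay at 8.38 and 8.58 against 7.51 and 7.92, a difference of -0.76 (SE 0.17; limma, adjusted p = 0.727), Itgax, the alpha chain of CR4, differed by -0.61 (SE 0.14; adjusted p = 0.737), Cd93 by -0.41 (SE 0.14; adjusted p = 1.00) and C3ar1, the receptor of C3a, by -0.52 (SE 0.21; adjusted p = 1.00). The components that act with C1q or through mannose-binding lectin had a median on the other side of 0. Of these, 9 of 11 had higher means in the knockout livers, with a median of 0.10 (0.044 without knockout replicate 1). C1s2 lay at 0.26 (SE 0.13), C1ra at 0.22 (SE 0.14) and C1s1 at 0.14 (SE 0.13). Alternative and terminal components were higher for 8 of 11, with a median of 0.19 (0.039 without control replicate 1) and the subunits of the membrane attack complex C8a, C8b and C9 at 0.39, 0.41 and 0.42 (SE 0.14, 0.15 and 0.18); Cfp, properdin, differed by -0.39 (SE 0.18). The adjusted p of each of these components was 1.00 by limma.

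Of 17 other pan-macrophage genes 16 had lower means in the knockout livers, with a median of -0.26. Tyrobp, a signalling adaptor of myeloid receptors, lay at 8.74 and 8.88 against 8.19 and 8.09, a difference of -0.67 (SE 0.13; limma, adjusted p = 0.653). Lgals3, galectin-3, differed by -0.73 (SE 0.15; limma, adjusted p = 0.653), Lyz2 by -0.65 (SE 0.20; adjusted p = 1.00) and Laptm5 by -0.63 (SE 0.20; adjusted p = 1.00). The summed linear values of this list were 9607 and 12900 in the control livers and 7868 and 8653 in the knockout livers, so control replicate 2 was high. Without it 13 of the 17 were lower with a median of -0.15, and without control replicate 1 all 17 were, with a median of -0.49. Other Kupffer cell genes were lower for 15 of 17, with a median of -0.19. Without control replicate 2 this direction was lost, with 8 of 17 lower and a median of 0.010, whereas without control replicate 1 all 17 were lower, with a median of -0.36. Hmox1, heme oxygenase, lay at 9.25 and 9.37 against 8.60 and 8.74, a difference of -0.64 (SE 0.13; limma, adjusted p = 0.658), and Clec1b differed by -0.40 (SE 0.14; limma, adjusted p = 1.00). Cd207, the neighbour of Clec4f, lay at 7.79 and 6.84 in the controls and at 5.41 and 7.22 in the knockouts, so its low array was knockout replicate 1 and not replicate 2 as for Clec4f.

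The lists for other cells had medians between -0.30 and 0.13. Monocyte and recruited macrophage genes were lower for 7 of 9, with a median of -0.23, and Ccr2, the receptor that brings monocytes into tissue, differed by -0.71 (SE 0.26; limma, adjusted p = 1.00). Without control replicate 2 the median of this list was -0.13, and without knockout replicate 2 it was -0.37. T and NK cell markers were lower for 4 of 4, with a median of -0.30 (-0.082 without control replicate 2), and Themis lay at -1.55 (SE 0.16; limma, adjusted p = 0.101). Markers of stellate cells and fibroblasts were lower for 6 of 8 (median -0.16) and those of sinusoidal endothelium for 8 of 10 (median -0.10). The 7 hepatocyte markers were all higher, with a median of 0.06, as were 6 of 6 mesothelium markers (median 0.13). The genes of large peritoneal macrophages were higher for 9 of 9 (median 0.06). Between the control tissues, however, 3 of these 9 were called lower in macrophages than in liver and 2 higher, with Lrg1 at -5.72. In liver this list therefore need not report that cell. B cell markers were lower for 2 of 3, neutrophil and mast cell markers for 3 of 5 and smooth muscle markers for 4 of 6, with medians of -0.099, -0.0031 and -0.062. Leaving out an array moved the median of stellate cell markers as far as -0.0063 and -0.35, turned the medians of endothelial (0.0091), B cell (0.18), neutrophil and mast cell (0.087) and smooth muscle markers (0.074), and left those of hepatocyte (0.052 to 0.065), large peritoneal macrophage (0.036 to 0.18) and mesothelium markers (0.035 to 0.19) above 0. What these shifts contribute to the values of the 10 genes was not tested.

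**Figure D3:**
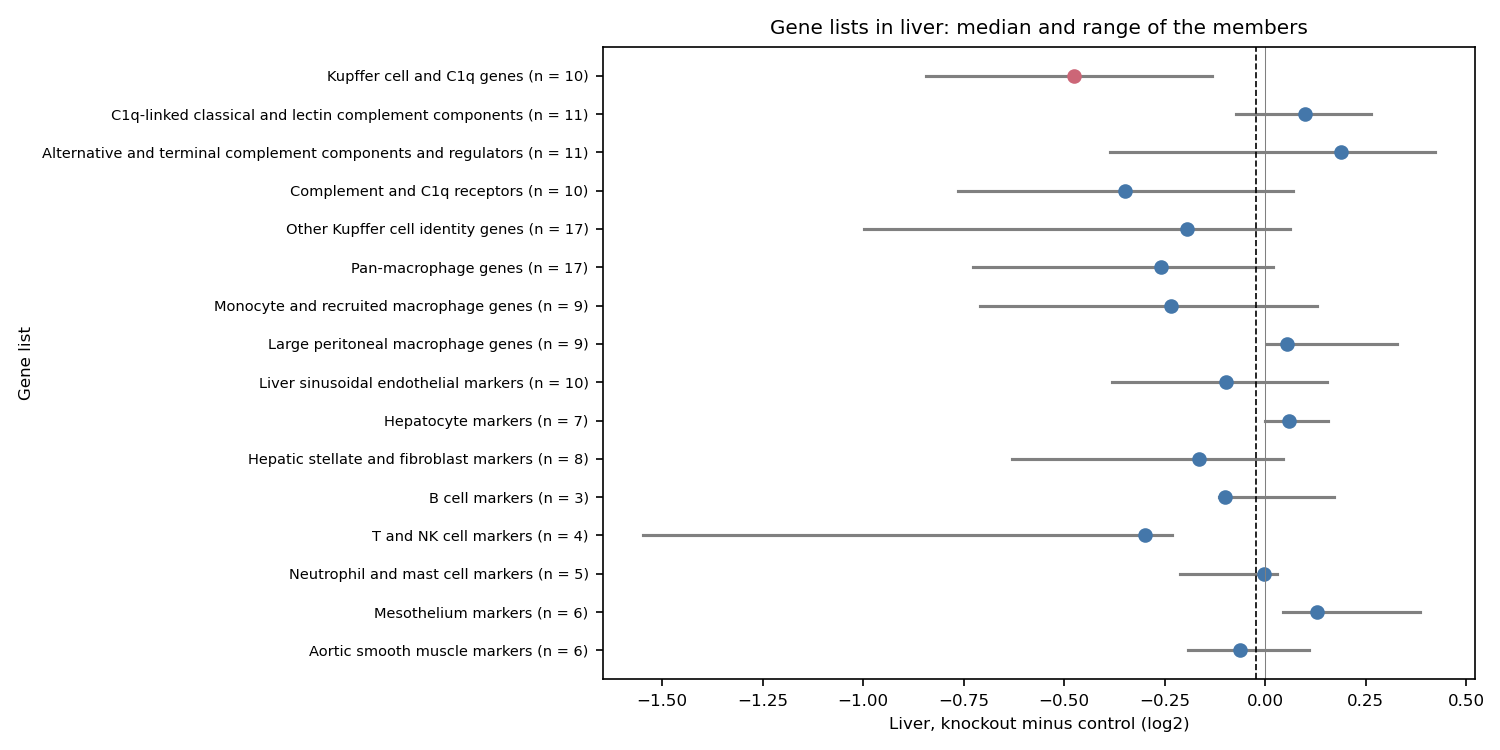
Knockout minus control difference in liver (log2, horizontal axis) for the Kupffer cell and C1q genes (red) and 15 gene lists (blue), with the number of measured genes in brackets; points are medians, lines run from the lowest to the highest gene and the dashed line is the median of all genes tested, -0.02. The 10 genes have the lowest median, -0.48, which was smaller in size without control replicate 2. They were chosen with earlier results of these data known. The complement component lists have medians above 0 with ranges that cross 0. The hepatocyte, large peritoneal macrophage and mesothelium lists have medians above 0 too.

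In peritoneal macrophages the same genes showed no shared direction between genotypes. None of the 10 passed an adjusted p under 0.05, and none reached an unadjusted p under 0.05; among all 15039 genes limma called 0% at the adjusted threshold, and at an unadjusted p under 0.05 there were 87 lower and 18 higher genes. The means of 8 genes were lower and of 2 higher in knockout macrophages, with a median of -0.06 against -0.04 for all genes, of which 63.5% were below 0 (43.7% with the batch as a block). The groups overlapped for all 10 genes, where 1.6% of all genes had every knockout below every control and 0.652% every knockout above. For 6192 of the 15039 genes the 3 arrays of batch 2 were equal, so these genes could not be counted as separate. Those shares are therefore low by construction. Folr2, equal on control replicate 3 and knockout replicate 3, could not be counted either. Without control replicate 2, 2 of the 10 means were lower, and without knockout replicate 1 or 3, 4 were.

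The C1q chains varied more between arrays than between genotypes. C1qa lay at 12.13, 12.36 and 11.84 on the control arrays and at 11.67, 13 and 11.67 on those of the knockout, which differed by 0.0074 (SE 0.37; limma, adjusted p = 1.00). C1qb lay at 12.69, 12.88 and 12.30 against 12.41, 13.14 and 12.23, a difference of -0.031 (SE 0.26; limma, adjusted p = 1.00). C1qc lay at 12.38, 12.61 and 12.18 against 12.04, 12.93 and 11.88, a difference of -0.11 (SE 0.28; limma, adjusted p = 1.00). Knockout replicate 2 was the highest array for every chain, and knockout replicates 1 and 3 lay below all controls for C1qa and C1qc. Within batch 1 the differences of C1qa, C1qb and C1qc were -0.57, -0.37 and -0.45, and within batch 2, which holds knockout replicate 2, they were 0.50, 0.38 and 0.22. Without knockout replicate 2 they were -0.43, -0.30 and -0.43, with limma's adjusted p at 1.00. The 95% intervals of the full differences ran from -0.88 to 0.89, from -0.66 to 0.60 and from -0.78 to 0.57, so the size seen in liver lies inside them.

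Of the resident macrophage genes, Vsig4 had the largest difference. It lay at 10.65, 10.39 and 10.67 on the control arrays and at 10.08, 9.44 and 10.84 on those of the knockout, which differed by -0.45 (SE 0.33; limma, adjusted p = 1.00). It was lowest on knockout replicate 2 and highest on knockout replicate 3, and differed by -0.44 within batch 1 and -0.52 within batch 2; without knockout replicate 2 the difference was -0.11, and without replicate 3 it was -0.81. Cd5l lay at 11.36, 11.92 and 11.87 against 10.96, 12.14 and 11.78, a difference of -0.09 (SE 0.31), with -0.68 in batch 1 and 0.09 in batch 2. Timd4 lay at 7.77, 7.67 and 7.54 against 7.61, 8.14 and 7.75, a difference of 0.17 (SE 0.15), with -0.11 in batch 1 and 0.40 in batch 2. Timd4 and Cd5l were thus highest on knockout replicate 2, the array where Vsig4 was lowest. Folr2 lay between 10.41 and 11.13 on the control arrays and between 10.33 and 10.90 on those of the knockout, which differed by -0.13 (SE 0.24), with -0.48 in batch 1 and 0.25 in batch 2. Clec4f, near the limit for dim genes, lay between 5.80 and 6.05 on all 6 arrays with a difference of -0.011 (SE 0.10), 0.14 in batch 1 and -0.074 in batch 2.

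Cd68 and Adgre1 varied little, apart from Cd68 on 1 array. Cd68 lay between 13.61 and 13.68 on 5 arrays and at 13.05 on knockout replicate 2, a difference of -0.20 (SE 0.16; limma, adjusted p = 1.00) that was -0.013 without that array. Its within-batch differences were -0.011 and -0.28. Adgre1 lay between 11.84 and 12.11 on all 6 arrays, a difference of -0.0048 (SE 0.10; limma, adjusted p = 1.00; -0.095 and 0.025 within batches). On the array low for Cd68 the summed linear values of the B cell markers were 3929, against 664.4 to 1616 on the other 5, and those of the pan-macrophage list were 114200, within the 110100 to 114500 of the others. The part of such cells in the values was not tested.

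The lists gave no called gene in macrophages either. Complement and C1q receptors were higher in the knockouts for 8 of 10 genes with a median of 0.03. Classical and lectin pathway components were lower for 7 of 8 with a median of -0.11. Other Kupffer cell genes were lower for 10 of 14 with a median of -0.06, and pan-macrophage genes for 10 of 17 with a median of -0.016. These counts take no account of the batches, which hold the genotypes unevenly: with the batch as a block they were 8 of 10 higher, 7 of 8 lower, 8 of 14 lower and 10 of 17 lower. Values were equal on all 3 arrays of batch 2 for 2, 4, 3 and 2 of these genes. Without control replicate 2, 7 of the 14 other Kupffer cell genes were lower, and without knockout replicate 1, 4 of the 10 receptors were higher. Large peritoneal macrophage genes were higher for 7 of 9, with a median of 0.29 (0.081 without knockout replicate 2 and 0.043 without control replicate 3), and their summed values were highest, at 10080, on knockout replicate 2 against 5183 to 7310 on the others.

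**Figure D4:**
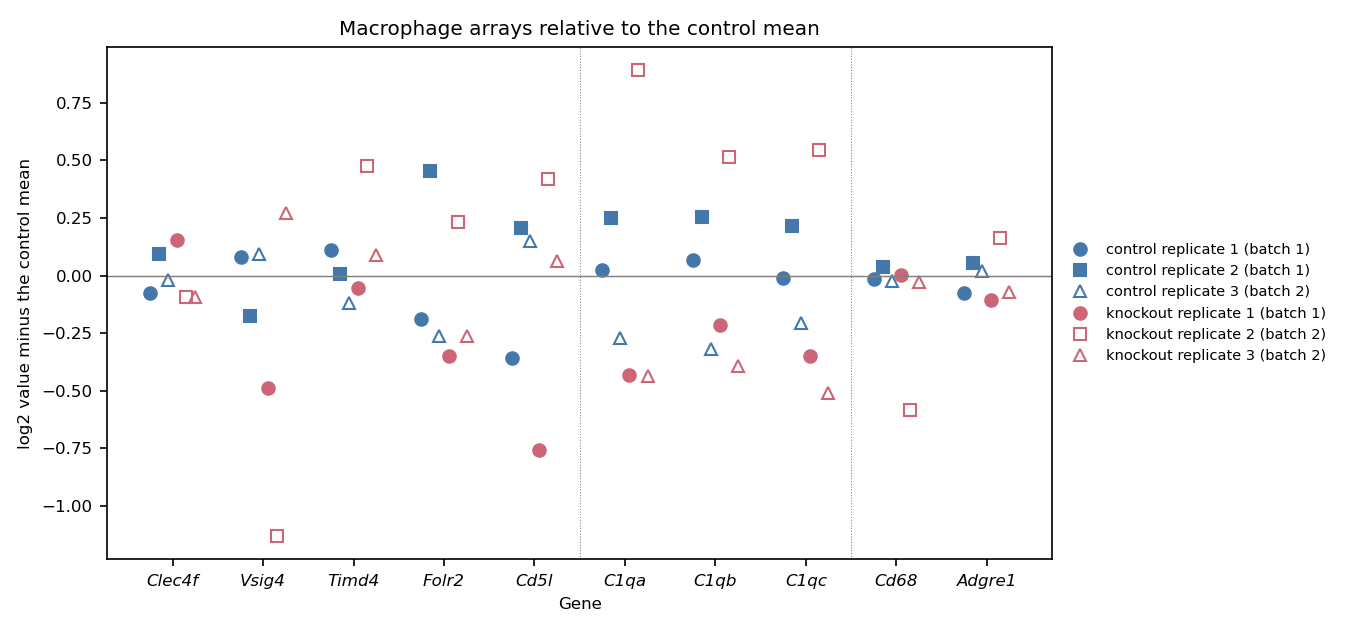
Log2 value of each gene on each macrophage array minus the mean of the 3 control arrays (vertical axis); filled symbols are batch 1, open symbols batch 2, blue control and red knockout. Knockout replicate 2 (open red square) is the highest array for the C1q chains, up to 0.89 for C1qa, and the lowest for Vsig4 (-1.13) and Cd68 (-0.59).

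Whether the genotype difference itself differed between liver and macrophages was tested by limma over the 10 arrays, with array medians removed. The liver difference minus the macrophage difference was below 0 for all 10 genes, with a median of -0.44 against -0.02 over the 15548 genes tested. None passed an adjusted p under 0.05, as in 0% of all genes, of which 219 were below and 177 above 0 at an unadjusted p under 0.05. Cd68 reached an unadjusted p of 0.0355, at -0.67 (SE 0.28; limma, adjusted p = 1.00), which makes 1 of 10 against 1.41% of all genes below 0 at that level. The estimates were -0.84 (SE 0.58) for Timd4, -0.55 (SE 0.47) for Cd5l, -0.50 (SE 0.52) for C1qa, -0.48 (SE 0.39) for C1qb and -0.39 (SE 0.39) for C1qc. Without macrophage knockout replicate 2 the estimates of the C1q chains were -0.038, -0.19 and -0.052 and that of Cd5l -0.28, and without liver control replicate 2 those of the chains were -0.27, -0.19 and -0.21. Without liver knockout replicate 2, 6 of the 10 were below 0. A difference of the genotype effect between the tissues was not shown for any of the 10 genes. Sex, diet, age and processing differ along with tissue here, so such a difference could not be assigned to tissue alone.

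The aorta pools give the level of the genes in pooled aortas of high-fat-fed Apoe-/- mice, on another array design and a linear scale, with 1 array per genotype and no replicate check. Of the 9 genes on this array 7 reached a signal of 32.6 on the brighter array, a limit set as the median over all probe sets of the brighter of their 2 values. Clec4f, at 2.78 for control and 6.30 for knockout, and Vsig4, at 13.5 and 26.3, did not, and no ratio is given for them. Cd5l was at 1172 and 1227 in the control and knockout pool, and Folr2 at 58.7 and 74.8. C1qa was at 716 and 780 and C1qc at 399 and 415. The probe sets of C1qb went in both directions, at 778 and 699 for the brightest and at 390 and 519, and 659 and 794, for the others, which belong to a type that can bind related transcripts. Cd68 was at 370 and 290 and Adgre1 at 111 and 123.

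None of the 7 genes differed 2-fold, against 1.27% (90 genes) of the 7098 kept. On the log2(signal + 16) scale, which understates the change of dim genes, the knockout pool was higher for 5 and lower for 2, with a median of 0.07 against -0.01 for all genes. With each array divided by its median the count was 3 higher and 4 lower, with a median of -0.046. The largest differences were -0.34 for Cd68 and 0.28 for Folr2, and that of C1qb turned from -0.15 to 0.13 when its probe sets were averaged. Cd68 thus had the lower value in the knockout in liver and in the aorta pools, under either scaling of the pools. The differences of C1qa and C1qc in aorta, 0.12 and 0.055, became 0.0094 and -0.053 under the other scaling. In the same pools the B cell gene Ms4a1 was 2.83 and Cd79b 1.96 higher in the knockout, the T cell gene Cd3d 2.23 higher and Ptprc, a marker of all leukocytes, 1.03 higher, and 11 of 15 pan-macrophage genes were higher with a median of 0.11. Their part in the signals of the 7 genes was not tested.

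**Figure D5:**
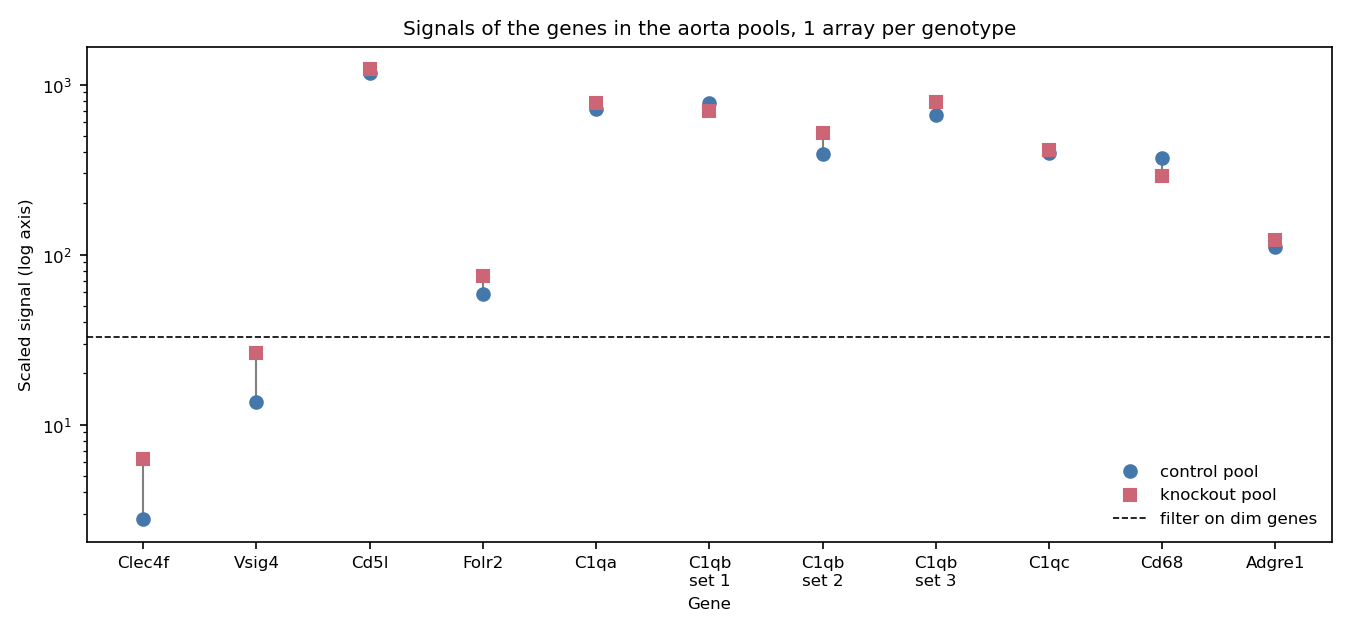
Scaled signal (log axis) of each probe set of the genes in the control pool (blue circles) and the knockout pool (red squares) of aorta, with a dashed line at 32.6, the limit for dim genes. Clec4f and Vsig4 lie below the limit, and the other probe sets differ by less than 2-fold between the pools.

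The genes whose values moved most like those of the C1q chains were found by the mean absolute difference of array deviations from the tissue mean, over the 10 arrays. The chains themselves lay 0.04 to 0.06 from their shared mean, and a profile without change lay at 0.29. Measured from their control means, the chains spread by 0.38 on macrophage knockout replicate 2 and by 0.22 on knockout replicate 1. On the other macrophage arrays they spread by 0.04 to 0.12. Lfng, a glycosyltransferase that modifies Notch, was nearest at 0.09, before AB124611 and Rassf2 at 0.11, and Jdp2 and Tlr7, an endosomal RNA sensor, at 0.12. Lfng was highest in macrophages on knockout replicate 2, at 10.14 against 9.04 to 9.68, as the chains were. In liver it lay at 6.44 and 6.82 in the controls and at 6.39 and 6.50 in the knockouts. Its knockout minus control difference was -0.18 in liver (SE 0.16) and 0.05 in macrophages (SE 0.29; limma, adjusted p = 1.00 in each).

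Over the 4 liver arrays the mean of Clec4f, Vsig4, Timd4 and Cd5l was most like Cebpb, a transcription factor, at 0.12, followed by the scavenger receptor gene Marco at 0.15, Lpin2 at 0.16, Angptl4 at 0.17 and Cxcl1 at 0.18. The 4 genes themselves lay 0.17 to 0.30 from their mean, with Cd5l the farthest, and a profile without change lay at 0.39. Cd5l, low in both knockout livers, did not share the order of the others, and Folr2 was not part of this mean. Marco, itself a gene of Kupffer cells, lay at 7.04 and 7.91 in the controls and at 7.63 and 6.50 in knockout replicates 1 and 2. Cebpb lay at 8.63 and 9.12, then at 8.76 and 8.11. Both thus repeated the order of Vsig4 and Timd4, with knockout replicate 1 between the controls and knockout replicate 2 lowest, and neither passed the test in liver (Marco -0.41, SE 0.38; Cebpb -0.44, SE 0.24; limma, adjusted p = 1.00). With only 4 arrays, many genes can share such an order.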

How the data were processed

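Per the submitters' processing notes, the authors used Affymetrix Expression Console, without a stated version or algorithm. From their range, the deposited values of macrophages and liver were read as log2 probe set summaries, and those of aorta as linear intensity scaled by the authors. From these, a gene was represented by its brightest probe set with 1 symbol in the platform annotation. A gene needed a mean at or above the 30th percentile over the array's probe sets or, in aorta, the median signal. Comparisons were fitted with limma 3.58.1 (lmFit and eBayes, R 4.3.3), without covariates, and p-values were adjusted by Benjamini-Hochberg over all genes tested, with calls under 0.05. Adjusted p-values of 0.9998 and above are printed as 1.00. The aorta pools have no test; 16 was added to their signals before log2.

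The members and the gene lists were chosen with earlier results of these data known. All 10 genes are named, with up to 4 genes of smallest p (in aorta, of largest difference) from each list described, and the 5 genes nearest to each of 2 member profiles; others, such as Cd207 in Clec4f's neighbourhood, Itgax on a single array and Ptprc, were singled out after their values were seen. The limma script was tested on simulated data. Replicate numbers were checked for pairing. Same-numbered macrophage arrays share the age of the mice, and their deviations correlated at 0.40, 0.03 and 0.50. Those of the liver arrays correlated at 0.11, where 2 pairs cannot decide. Pairing was therefore neither shown nor excluded, and the main fits did not use it. The alternatives were normalization, dim-gene filter, probe set choice, variance prior, joint fit and leaving out each array. Others were the replicate block, the batch as read from equal values, and aorta pseudocount and scaling. For the gene lists, leaving out arrays and the batch were added after seeing the data.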

Additional observations from a re-analysis of the deposited data

How the results depend on the processing

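No member passed the threshold in macrophages, in liver or in the difference between them under any alternative run, except Cd68 in liver with the replicate block. Whether replicate numbers pair the samples was not settled. The replicate block called 23 genes in liver and 1 member, Cd68 (-0.84, limma, adjusted p = 0.0392), and none in macrophages. With limma, 1 gene was called in liver as reported, and 0 under quantile normalization, no filter, a trended prior or all 10 arrays in 1 fit; over the fits leaving out an array the count ran from 0 to 39, and the members' median from -0.71 to -0.26. Over those fits Clec4f ran from -0.56 to 0.18, Timd4 from -1.54 to 0.25 and Folr2 from -0.39 to 0.13.

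In macrophages Vsig4 and Cd68 kept their direction under every alternative run and within each batch. Timd4 kept its direction under every alternative run on both batches but lay at -0.11 within batch 1. The other 7 members turned under at least 1 alternative. Leaving out an array gave 2 to 8 members below 0; Clec4f ranged from -0.094 to 0.036, Cd5l from -0.35 to 0.24, Folr2 from -0.31 to 0.0998, C1qa from -0.43 to 0.23, C1qb from -0.30 to 0.15, C1qc from -0.43 to 0.096 and Adgre1 from -0.089 to 0.046. Quantile normalization turned Clec4f to 0.021 and Adgre1 to 0.032. The batch, as read from equal values, taken as a block turned Clec4f to 0.035, C1qa to -0.035 and C1qb to 0.0037. For liver minus macrophages, leaving out an array called 0 to 2 genes and left 6 to 10 members below 0, with Clec4f from -0.55 to 0.14, Vsig4 from -1.06 to 0.38, Timd4 from -1.71 to 0.024 and Folr2 from -0.27 to 0.20; Folr2 turned to 0.018 under quantile normalization and 0.0039 with the batch block.

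Between control tissues, the deposited values as they are gave a members' median of 2.02 and 2 members below 0, with Vsig4 at 0.19 and Cd5l at 0.13; quantile normalization took Cd5l to -0.40 (limma, adjusted p = 0.0822). In aorta, pseudocounts of 1 and 64 gave 169 and 37 genes at 2-fold; dividing by array medians took the members' median to -0.046, with Cd5l at -0.046 and C1qc at -0.053, and averaging probe sets took C1qb to 0.13. Clec4f could not be tested in macrophages with the filter at the median. The cause of these changes was not tested. The number of arrays, 2 to 3 per genotype, limits the precision.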
